A study of Mus musculus with 8 samples.

Results

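A pair of prefixes divides the library titles of this kidney series, CKD523 and CKD627, and the gene counts of the 4 libraries that carry CKD627 were set against those of the 4 that carry CKD523, which together are all 8 libraries used here. The libraries were assigned by the first word of the title alone. The labels do not say what the prefix stands for, so what it stands for cannot be told apart from any other difference between the 2 sets. All 8 came from kidneys of p16-tdTomato mice fed adenine to bring on chronic kidney disease, and none came from a mouse without the disease. Each prefix held 2 identifiers, CKD523_2 and CKD523_3 or CKD627_1 and CKD627_2, and each identifier gave 1 Tomato-negative and 1 Tomato-positive library, named for the red fluorescent reporter. The labels call every library proximal tubular epithelial cell, and do not give age, sex, the time on the diet or how the cells were separated. Nothing in them ties each library to its own animal, so the p-values below measure the spread between these libraries, and libraries with the same identifier may share a source.

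The nephron is a tube whose segments take different tasks. The proximal tubule recovers most of the filtered sodium, phosphate, glucose, amino acids and protein, makes glucose, and burns fat to pay for it. The thick ascending limb dilutes the urine, and the distal tubule and collecting duct set its final salt, acid and water under hormonal control. Adenine is oxidised to a poorly soluble product that crystallises in the tubules, which injures the epithelium and is followed by inflammation and fibrosis.

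Between 13474439 and 19886202 counts were deposited per library. Values are given as CPM, read counts scaled to a common library size with TMM factors, and differences as log2 of CKD627 minus CKD523 with Tomato status in the model, tested 2-sided with edgeR's quasi-likelihood test and Benjamini-Hochberg adjustment over the 15138 genes with enough counts. Calls given without a tool are those of edgeR with TMM factors. Near-identical copies can share reads, so the values of Hspa1a and Hspa1b, Csf2rb and Csf2rb2, Ly6c1 and Cyp4a12a are uncertain as those of single genes. The Tomato-negative library of CKD627_1 stood apart in its ribosomal protein genes, whose summed level was 14399 CPM there and 7558 to 8901 CPM in the other 7. The reporter itself, tdTomato, differed by 0.28 ± 0.16 (SE, adjusted p = 0.274) between the prefixes.

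The prefixes differed in 3009 genes at an adjusted p under 0.05, which is 19.9% of those tested. Of these, 1372 (9.06% of the tested genes) were higher and 1637 (10.8%) lower in CKD627. Among the called genes 301 were over 4-fold higher and 76 over 4-fold lower. The median of all tested genes was 0.03, and TMM scaling sets it near 0. With the counts scaled by library size alone that median shifted by 0.15, and 2114 genes were higher and 1216 lower, a share of 63.5% higher against 45.6% with TMM factors.

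The difference was also taken within each Tomato group. It passed the threshold for 2525 genes (16.7%) in Tomato-negative and 1627 genes (10.7%) in Tomato-positive libraries. Both contrasts passed with the same sign for 1056 genes (6.98%), 439 higher (2.90%) and 617 lower (4.08%), and 5 genes passed in both with opposite signs. Without regard to any model, the 4 CKD627 values lay above all 4 CKD523 values for 1395 genes (9.22%) and below them for 1517 (10%). These counts depended on single libraries, where a lone library of a group was taken to vary like the others. In Tomato-negative cells 1291 genes passed without the library of CKD523_2 and 1491 without that of CKD523_3. In Tomato-positive cells 538 passed without CKD523_2, 899 without CKD523_3 and 550 without CKD627_1. The 1056 shared genes became 653 without the negative library of CKD523_2, and 401, 647 and 399 without the positive libraries of CKD523_2, CKD523_3 and CKD627_1.

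**Figure D1:**
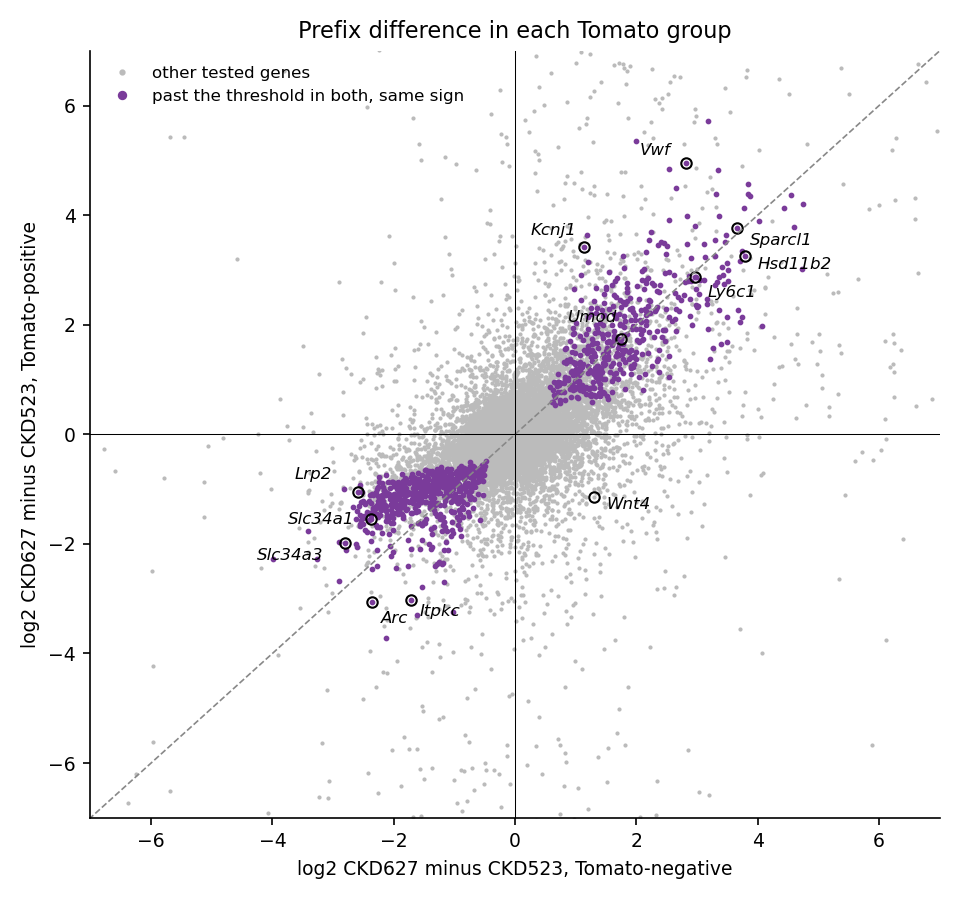
Each point is 1 tested gene, with the log2 difference of CKD627 minus CKD523 in Tomato-negative libraries on the x axis and in Tomato-positive libraries on the y axis. Purple points are the 1056 genes past the threshold in both with the same sign, the dashed line marks equal differences, and 87 genes lie beyond the axis limit of 7.

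Markers of the early proximal tubule were lower in CKD627. All 25 tested genes of that list passed the threshold as lower, against 10.8% of all tested genes, and 22 of them also did so in both Tomato groups. Their median log2 difference was -1.72, with single genes between -2.39 and -1.18, where the median of all genes was 0.03. Leaving out any library or identifier kept all 25 as lower. The 25 genes summed to 29524 and 28729.7 CPM in the Tomato-negative libraries of CKD523 and to 5245 and 7384 in those of CKD627, a 4.61-fold lower mean. The Tomato-positive libraries held 19050.5 and 17223 against 5976 and 9090.2 CPM, a 2.41-fold lower mean. Neither pair of groups overlapped. In bulk samples, fewer cells of a type and less RNA of that type per cell cannot be told apart.

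**Figure D2:**
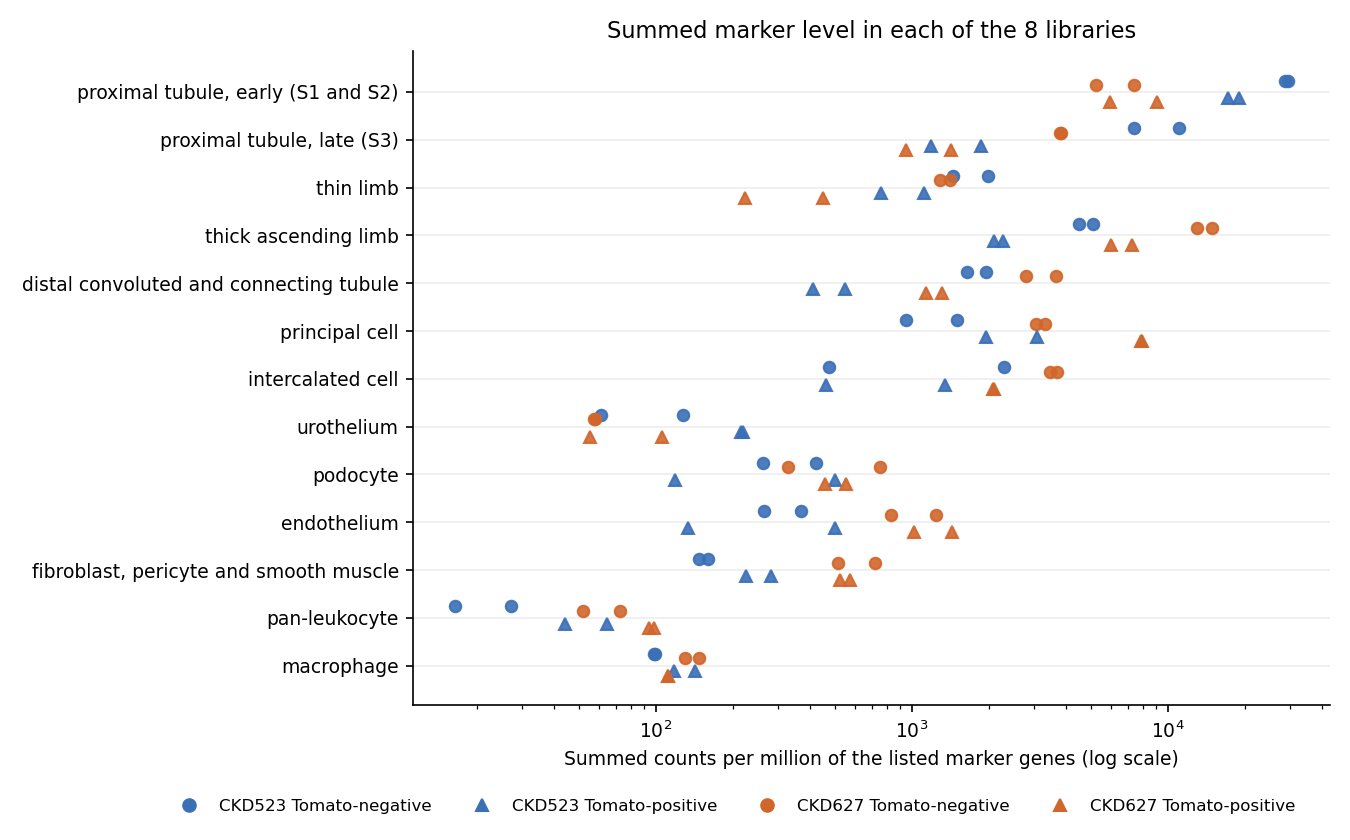
Points give the summed level of each marker list in every library, in CPM on a log axis, with colour for the prefix and shape for Tomato status. The early proximal tubule sum lies at 5245 to 9090 CPM in the CKD627 libraries and at 17223 to 29524 CPM in the CKD523 libraries, while the thick ascending limb and endothelial sums lie further right in CKD627 within each Tomato group.

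Among transporters of the apical membrane, Slc34a1 (chr13:55398187-55415592), the main sodium-phosphate cotransporter of this segment, lay at 6842 and 7079 CPM in Tomato-negative CKD523 and 1091 and 1600.4 CPM in Tomato-negative CKD627 libraries. Its Tomato-positive values were 4796 and 4527 CPM against 1160.1 and 2015 CPM. Every CKD627 library was below every CKD523 library, and the log2 difference was -1.96 ± 0.22 (SE, adjusted p = 1.93e-04). The related transporter Slc34a3 (chr2:25228898-25234364) showed the largest difference of the list, -2.39 ± 0.21 (SE, adjusted p = 6.77e-05), with 116 and 86.4 CPM against 12.3 and 16.6 CPM in negative and 129 and 101 against 28.3 and 29.5 CPM in positive libraries. Slc5a2 (chr7:128265657-128272430), the glucose carrier of the early segment, fell from 992 and 833 to 120.4 and 199.96 CPM in negative and from 1120.3 and 972 to 277 and 449 CPM in positive libraries. Its log2 difference was -2.02 ± 0.25 (SE, adjusted p = 2.99e-04). These 3 carriers thus separated the prefixes in both Tomato groups.

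Lrp2 (chr2:69424340-69586065) encodes megalin, the receptor for filtered protein. It lay at 1601 and 1419 CPM in negative CKD523 libraries and at 201 and 298 CPM in negative CKD627 libraries. In positive libraries it lay at 837 and 805 against 357 and 437 CPM. The gap was wider in the negative libraries (-2.597) than in the positive ones (-1.05), but the difference between these contrasts did not pass the threshold (adjusted p = 0.116). Hnf4a (chr2:163506808-163572910), a nuclear receptor that sets proximal tubule identity, lay at 706 and 744 against 92.9 and 189.6 CPM in negative and 451 and 418 against 182 and 229 CPM in positive libraries. Its log2 difference was -1.72 ± 0.28 (SE, adjusted p = 0.00139).

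Enzymes of the segment moved alike. Pck1 (chr2:173153048-173159273), which commits carbon to glucose synthesis, lay at 881 and 788 CPM in negative CKD523 and 145 and 196 CPM in negative CKD627 libraries, and at 420.3 and 381 against 88.8 and 165 CPM in positive ones. The difference was -1.97 ± 0.21 (SE, adjusted p = 1.77e-04), with no overlap. Gatm, which makes the precursor of creatine, differed by -1.94 ± 0.201 (SE, adjusted p = 1.38e-04), Miox, which breaks down inositol, by -1.77 ± 0.18 (SE, adjusted p = 1.22e-04), and Keg1, a kidney-enriched acyltransferase gene, by -1.85 ± 0.17 (SE, adjusted p = 7.91e-05). None of these 3 overlapped between the prefixes.

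The upstream sequences of these genes were searched because the list moved as a whole. Of the genes, 20 had an entry in the RefSeq promoter table (GRCm38.p6), with 26 windows, each searched over the 250 bases before a start. The core letters bound by the proximal tubule factor HNF1, GTTAAT on either strand, stood in 26.9% of these windows, in 7.8% of the windows of all genes lower in CKD627, in 4.5% of those higher, in 4.7% of those of all tested genes and in 6.4% of all windows in the table. The HNF4 motif CAAAGTCCA stood in none of the 26 windows, in 1.2% of those of lower genes, 0.1% of those of higher genes, 0.3% of those of all tested genes and 0.4% of all windows. The E-box CACGTG stood in 7.7% of the 26, in 10.6% of those of lower and 5.6% of those of higher genes, in 7.9% of those of all tested genes and in 6.0% of all. A match describes the letters only. A pair of transporter genes and the glucose-making enzyme are shown as examples of windows with the HNF1 letters, in capitals as GTTAAT or, where they lie on the other strand, as ATTAAC. Each is written on the strand of its gene. The Slc34a1 window spans chr13:55399398-55399647, plus strand, and lies inside the gene span given above. The Slc22a6 window spans chr19:8617746-8617995, plus strand. Slc22a6, an organic anion carrier with a difference of -1.695 (adjusted p = 0.00129), was chosen for its window after its value was seen. The Pck1 window spans chr2:173152823-173153072, plus strand, with 25 bases in annotated exons.
Slc34a1: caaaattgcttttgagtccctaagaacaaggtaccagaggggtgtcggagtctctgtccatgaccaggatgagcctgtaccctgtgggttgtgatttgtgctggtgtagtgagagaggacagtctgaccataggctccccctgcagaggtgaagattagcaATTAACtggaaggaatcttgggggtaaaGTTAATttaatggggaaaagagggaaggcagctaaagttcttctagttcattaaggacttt
Slc22a6: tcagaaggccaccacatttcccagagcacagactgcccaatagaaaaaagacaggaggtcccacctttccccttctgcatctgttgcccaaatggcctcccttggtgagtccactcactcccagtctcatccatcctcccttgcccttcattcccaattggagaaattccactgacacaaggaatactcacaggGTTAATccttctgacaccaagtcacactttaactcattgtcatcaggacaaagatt
Pck1: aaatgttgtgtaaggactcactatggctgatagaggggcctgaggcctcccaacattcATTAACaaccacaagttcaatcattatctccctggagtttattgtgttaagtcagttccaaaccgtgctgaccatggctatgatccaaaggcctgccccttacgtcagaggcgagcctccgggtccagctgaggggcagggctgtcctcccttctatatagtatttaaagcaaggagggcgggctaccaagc

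The late proximal tubule list was mixed. Of 13 tested genes 7 were lower and 2 higher in CKD627, against 10.8% and 9.06% of all tested genes. The median of the list was -1.36, and 4 of its genes were lower without both libraries of CKD627_1. Slc7a13, a cystine carrier of the last segment, lay at 123 and 279 CPM against 39.1 and 42.98 CPM in negative libraries and at 6.91 and 20.8 against 5.104 and 5.26 CPM in positive ones, so that the Tomato groups were further apart than the prefixes. Its log2 difference was -1.903 ± 0.35 (SE, adjusted p = 0.00265). The amino acid acylase Acy3 differed by -1.66 ± 0.198 (SE, adjusted p = 2.52e-04) and the protease Napsa by -1.498 ± 0.21 (SE, adjusted p = 5.75e-04). Kap, an androgen-regulated kidney gene, did not pass the threshold, at -0.78 ± 0.31 (SE, adjusted p = 0.108). Over 22 alternatives Kap ranged from -1.18 to -0.27, and it passed in 5. The 2 higher genes were Cyp7b1, an oxysterol hydroxylase, at 1.604 ± 0.28 (SE, adjusted p = 0.00206), and the glucose carrier Slc5a1, named after its value was seen, at 0.98 ± 0.19 (SE, adjusted p = 0.00394). In the thin limb list 2 of 5 genes were lower and none higher, against 10.8% and 9.06% of all tested genes. The 2 were Fst and Epha7. Fst, which encodes the activin binding protein follistatin, differed by -1.73 ± 0.197 (SE, adjusted p = 2.06e-04). The ephrin receptor gene Epha7 differed by -1.598 ± 0.29 (SE, adjusted p = 0.00251).

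Genes of the thick ascending limb were higher in CKD627. Of 15 tested, 11 were higher, against 9.06% of all tested genes, and 1 was lower, with a median of 1.38. Umod (chr7:119462711-119479282), which encodes uromodulin, the main protein of normal urine, lay at 2992 and 3421 CPM in negative CKD523 and 10168 and 11306 CPM in negative CKD627 libraries. Its positive libraries lay at 1515 and 1311 against 5158 and 4310.5 CPM. The log2 difference was 1.74 in negative and 1.74 in positive libraries, and 1.74 ± 0.12 (SE, adjusted p = 2.08e-05) over both. Slc12a1, the sodium-potassium-chloride carrier that loop diuretics block, lay at 387 and 462 against 967 and 1200.01 CPM in negative and at 147 and 147 against 824 and 634 CPM in positive libraries. Its difference was 1.83 ± 0.202 (SE, adjusted p = 1.86e-04), and neither gene overlapped between prefixes. Cldn10 (chr14:118787908-118875489), a tight junction claudin placed in this list, went the other way, from 188 and 181 to 111 and 103 CPM in negative and from 141 and 139.99 to 58.3 and 58.2 CPM in positive libraries (-1.03 ± 0.13 SE, adjusted p = 3.44e-04). It is also expressed in the proximal tubule, from a different promoter, and gene-level counts do not separate the isoforms.

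Of 12 genes of the distal convoluted and connecting tubule 7 were higher and none lower, against 9.06% and 10.8% of all tested genes. Calb1 (chr4:15881264-15908064), the calcium buffer of these cells, lay at 37.1 and 47.9 CPM against 223 and 242 CPM in negative libraries and at 9.52 and 6.38 against 79.96 and 96.7 CPM in positive ones, a difference of 2.94 ± 0.23 (SE, adjusted p = 4.14e-05). Slc8a1, the sodium-calcium exchanger, differed by 2.22 ± 0.15 (SE, adjusted p = 2.08e-05), and the apical calcium channel Trpv5, named after its value was seen, by 3.18 ± 0.38 (SE, adjusted p = 2.43e-04). Slc12a3, the thiazide-sensitive carrier that defines the convoluted part, did not pass, at 0.61 ± 0.31 (SE, adjusted p = 0.212), with 1158 and 817 CPM against 736 and 1127 CPM in negative and 173 and 87.2 against 374 and 275 CPM in positive libraries. The 3 calcium genes did not overlap between prefixes, while the salt carrier overlapped in the negative libraries and not in the positive ones.

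Principal cells of the collecting duct respond to aldosterone and vasopressin. Of their 13 markers 10 were higher and none lower, against 9.06% and 10.8% of all tested genes, with a median of 1.74. Scnn1b (chr7:121865038-121918514) and Scnn1g (chr7:121734479-121768475), 2 subunits of the epithelial sodium channel, differed by 2.61 ± 0.17 (SE, adjusted p = 2.04e-05) and 3.23 ± 0.24 (SE, adjusted p = 3.68e-05). Scnn1b lay at 23.2 and 39.3 CPM in negative CKD523 and 196 and 195 CPM in negative CKD627 libraries, and at 50.9 and 61.2 against 329 and 341 CPM in positive ones. Hsd11b2 (chr8:105518755-105523988), the enzyme that keeps glucocorticoid off the aldosterone receptor, lay at 21.9 and 53.7 against 587 and 466 CPM in negative and 65.3 and 151 against 983 and 1079.8 CPM in positive libraries, a difference of 3.52 ± 0.32 (SE, adjusted p = 7.91e-05). Kcne1, a potassium channel subunit, rose by 4.101 ± 0.41 (SE, adjusted p = 1.22e-04). Aqp2, the water channel moved by vasopressin, lay at 79.4 and 88.1 against 1042 and 558 CPM in negative and at 496 and 1149.8 against 2489 and 2421 CPM in positive libraries, so a positive CKD523 library exceeded both negative CKD627 libraries. Its difference within Tomato groups was 2.41 ± 0.38 (SE, adjusted p = 0.00106).

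For intercalated cells, which secrete acid or base, 11 of 15 genes were higher and none lower, against 9.06% and 10.8% of all tested genes. DESeq2 gave 8 higher and none lower. The median by edgeR was 1.51, but CKD523 was itself divided. It was 0.84 without both libraries of CKD523_2 and 2.76 without both of CKD523_3. The 15 genes summed to 476 and 2302 CPM in the negative libraries of CKD523_2 and CKD523_3 and to 465 and 1349 CPM in their positive libraries, against 3467 and 3708 CPM in negative and 2094 and 2070.1 CPM in positive CKD627 libraries. The count fell to 5 without the positive library of CKD523_2, without the positive library of CKD627_1 or without the negative library of CKD627_2, to 7 without the positive library of CKD627_2, to 5 without both libraries of CKD627_1 and to 3 without both of CKD627_2. Rhcg, an ammonia channel, differed by 2.100 ± 0.33 (SE, adjusted p = 9.89e-04), and Foxi1, the transcription factor of these cells, by 1.74 ± 0.39 (SE, adjusted p = 0.00836). Slc26a4, the anion exchanger pendrin, lay at 43.7 and 401 against 556 and 676 CPM in negative and 13.8 and 34.6 against 84.2 and 118 CPM in positive libraries (1.76 ± 0.52 SE, adjusted p = 0.0332). It did not pass in 10 of 22 alternatives, DESeq2 and counts summed per identifier included. Its CKD523 libraries differed more from each other than its CKD627 libraries did.

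**Figure D3:**
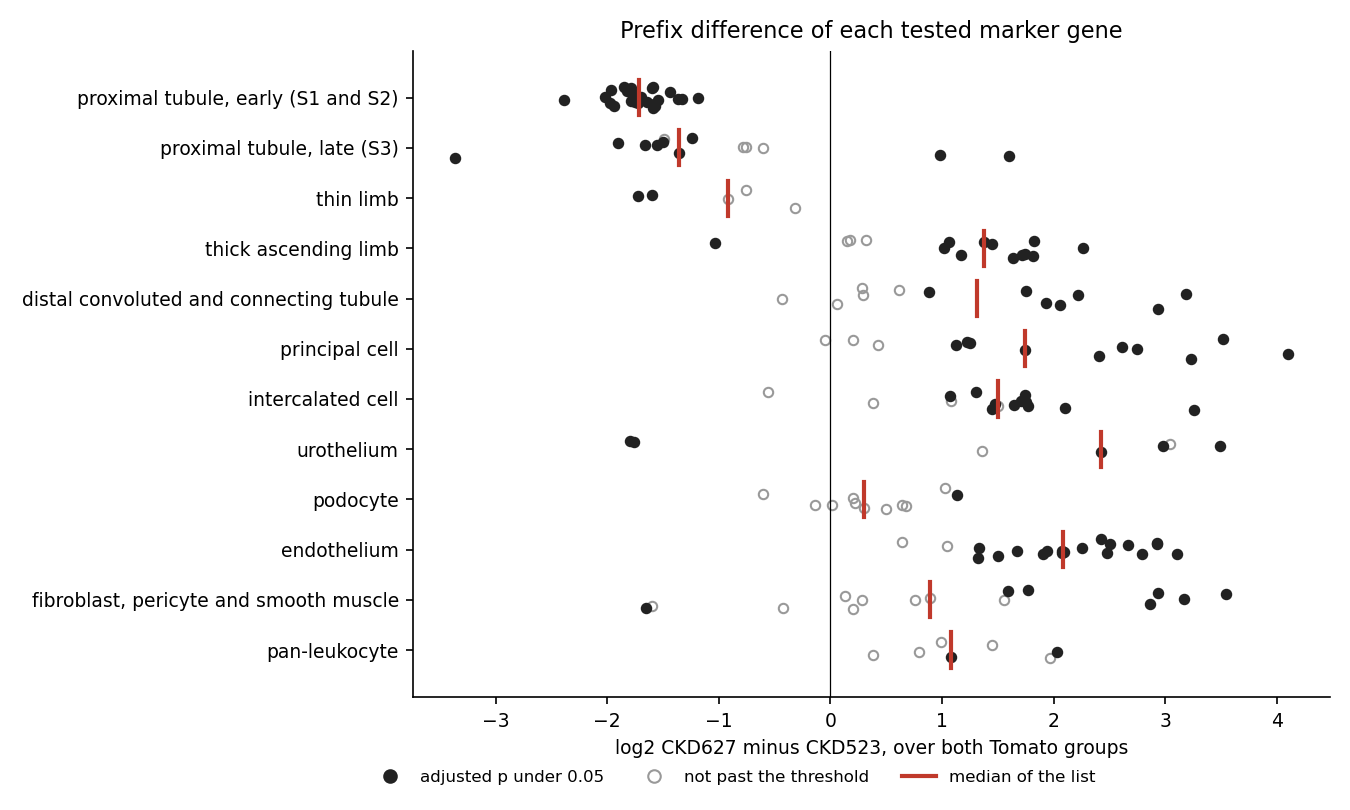
Each point is 1 tested marker gene, placed by its log2 difference of CKD627 minus CKD523 over both Tomato groups, filled where the adjusted p was under 0.05, and red bars are the medians of the lists. The early proximal tubule lies wholly left of 0, from -2.39 to -1.18, and the endothelium wholly right, from 0.64 to 3.11.

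Markers of endothelium, the lining of vessels, were higher in CKD627. Of 20 endothelial markers 18 were higher and none lower, against 9.06% and 10.8% of all tested genes. The values of 16 did not overlap between prefixes, against 9.22% of all tested genes. The median was 2.08, and 14 to 20 were called as higher when a library or identifier was left out. Ly6c1 (chr15:75044018-75048830), a surface protein of capillary endothelium and some leukocytes, lay at 14.4 and 13.3 CPM in negative CKD523 and 108 and 109 CPM in negative CKD627 libraries, and at 7.83 and 11.3 against 81.97 and 59.5 CPM in positive ones. Its difference was 2.93 ± 0.17 (SE, adjusted p = 1.01e-05). Plvap, which forms the diaphragms of capillary pores, differed by 2.67 ± 0.31 (SE, adjusted p = 2.13e-04), and Pecam1, the junction protein CD31, by 2.09 ± 0.41 (SE, adjusted p = 0.00367). Kdr, the receptor for vascular endothelial growth factor that is high in the glomerulus, did not pass at 1.04 ± 0.46 (SE, adjusted p = 0.145). Over 22 alternatives Kdr ranged from 0.68 to 1.66, and it passed in 4. The labelled cell type was a proximal tubule cell. Endothelial markers summed to 369 and 265 CPM in the negative and 134 and 501 CPM in the positive libraries of CKD523_2 and CKD523_3. In CKD627 the sums were 832 and 1242 CPM in negative and 1443 and 1023 CPM in positive libraries.

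Of 15 genes of fibroblasts, pericytes and smooth muscle 6 were higher and 1 lower, against 9.06% and 10.8% of all tested genes. The lower one was the matrix gene Fbln1, which did not pass without any 1 of 6 libraries. Acta2 (chr19:34241090-34255590), smooth muscle actin, lay at 11.01 and 7.91 CPM against 117 and 134 CPM in negative and 10.7 and 11.8 against 50.98 and 48.1 CPM in positive libraries (2.93 ± 0.297 SE, adjusted p = 1.25e-04). Rgs5, a pericyte gene, differed by 3.16 ± 0.31 (SE, adjusted p = 1.11e-04), Tagln, an actin binding protein, by 2.86 ± 0.302 (SE, adjusted p = 1.54e-04), and Myh11, the smooth muscle myosin, by 3.55 ± 0.396 (SE, adjusted p = 1.90e-04). The collagen gene Col1a2 and the matrix gene Dcn, markers of fibroblasts chosen after their values were seen, did not pass, at 0.28 ± 0.19 (SE, adjusted p = 0.348) and 0.76 ± 0.499 (SE, adjusted p = 0.343). Of 11 podocyte markers 1 was higher, against 9.06% of all tested genes, and none lower. The higher gene was Dach1, at 1.14 ± 0.17 (SE, adjusted p = 7.98e-04), which is not restricted to podocytes. The median of the podocyte list ran from -0.18 to 1.08 when a library or identifier was left out.

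Leukocyte markers were low in every library. The 7 pan-leukocyte genes summed to 27.3 and 16.5 CPM in negative and 44.4 and 64.4 CPM in positive CKD523 libraries, and to 72.6 and 51.97 CPM in negative and 94.4 and 98.5 CPM in positive CKD627 libraries. Ptprc, the leukocyte antigen CD45, rose from 1.59 and 1.99 to 8.33 and 9.37 CPM in negative and from 3.302 and 1.84 to 8.51 and 9.02 CPM in positive libraries (2.03 ± 0.31 SE, adjusted p = 9.44e-04). Of 14 tested macrophage genes 1 was higher and none lower by edgeR, against 9.06% and 10.8% of all tested genes. The higher gene was Lyz2, which encodes lysozyme (1.57 ± 0.37 SE, adjusted p = 0.0117). DESeq2 called 2 higher and 2 lower, and limma-voom and counts summed per identifier 1 higher and 2 lower. By edgeR no macrophage gene was higher without the negative library of CKD627_2, both of CKD627_2 or both of CKD523_2, and 2 were without the positive library of CKD523_2, the negative library of CKD627_1 or its positive library. The genes Cd3d and Cd3e of the T-cell receptor complex and the globin genes Hba-a1 and Hbb-bs had no counts in any library. Of 10 T and NK cell genes with an entry, 3 had no counts and 3 were tested. By edgeR 1 of these 3 was higher and none lower, against 9.06% and 10.8% of all tested genes. The 3 genes summed to 2.58 and 1.67 CPM in negative and 2.15 and 2.47 CPM in positive CKD523 libraries. In CKD627 the sums were 7.49 and 5.82 CPM in negative and 9.48 and 4.73 CPM in positive libraries. DESeq2 called 2 higher and limma-voom none.

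The rule for the largest differences took genes past the threshold in each Tomato group, with no overlap and at least 5 CPM on average. The rises included genes of no list. Sparcl1 (chr5:104079111-104113733), a matricellular protein of vessels, lay at 11.8 and 9.39 CPM in negative CKD523 and 109.6 and 159 CPM in negative CKD627 libraries, and at 10.6 and 6.78 against 125 and 109 CPM in positive ones. It had the smallest p of these genes (3.71 ± 0.19 SE, adjusted p = 7.70e-06). All 4 CKD627 libraries lay above all 4 CKD523 libraries, which the rule itself required.

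Slc14a1, a urea transporter, had no counts in 1 negative CKD523 library and rose to 55.5 and 54.97 CPM in positive CKD627 libraries (4.24 ± 0.46 SE, adjusted p = 1.86e-04). Vwf, the clotting factor stored by endothelium, was higher in CKD627 by 3.95 ± 0.51 (SE, adjusted p = 3.92e-04), and Gja5, the connexin of arterial endothelium, by 3.63 ± 0.61 (SE, adjusted p = 0.00164). Csf2rb2 and Csf2rb are a mouse pair of receptor beta chain genes for interleukin 3 and related cytokines. They were higher by 4.42 ± 0.39 (SE, adjusted p = 6.87e-05) and 3.97 ± 0.39 (SE, adjusted p = 1.11e-04). Both lay higher in positive than in negative CKD627 libraries, with Csf2rb2 at 53.3 and 34.7 CPM in positive and 10.4 and 17.9 CPM in negative ones. Syt15, a synaptotagmin family gene, showed the largest difference by this rule, 4.496 ± 0.59 (SE, adjusted p = 4.14e-04), from levels of 0.835 and 0.257 CPM in negative CKD523 libraries. Sncg, which encodes gamma-synuclein, and Col26a1, a collagen gene, were higher by 4.16 ± 0.53 (SE, adjusted p = 3.66e-04) and 3.68 ± 0.45 (SE, adjusted p = 2.93e-04).

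The largest falls included carriers of the tubule and inducible genes. Stab2 (chr10:86841198-87008025), a scavenger receptor for hyaluronan, lay at 10.6 and 5.28 CPM against 0.357 and 0.633 CPM in negative and 14.97 and 10.3 against 1.34 and 3.86 CPM in positive libraries (-3.003 ± 0.498 SE, adjusted p = 0.00149). Slc28a1, a concentrative nucleoside carrier, differed by -2.798 ± 0.37 (SE, adjusted p = 4.12e-04), Slc10a5, an orphan member of the bile acid carrier family, by -2.76 ± 0.49 (SE, adjusted p = 0.00219), and Slc39a5, a zinc importer, by -2.201 ± 0.21 (SE, adjusted p = 1.08e-04). The arachidonic acid epoxygenase Cyp2c23 differed by -2.32 ± 0.35 (SE, adjusted p = 7.99e-04). Within CKD523 all 4 of these, from Slc28a1 to Cyp2c23, lay higher in negative than in positive libraries, as the early proximal tubule sum did. Arc (chr15:74669083-74672570), known as an activity-regulated gene of neurons, lay at 677 and 447 CPM in negative CKD523 and 96.2 and 124 CPM in negative CKD627 libraries. In positive libraries it lay at 1371 and 1181 against 179 and 127 CPM, a difference of -2.71 ± 0.21 (SE, adjusted p = 4.14e-05). Itpkc (chr7:27207172-27228661), an inositol phosphate kinase, behaved alike, with 189 and 169 against 54.2 and 54.4 CPM and 408 and 433 against 49.8 and 53.8 CPM (-2.37 ± 0.24 SE, adjusted p = 1.18e-04), as did Mxd1, an antagonist of Myc (-2.16 ± 0.24 SE, adjusted p = 1.88e-04), and Bnip5 (-2.96 ± 0.37 SE, adjusted p = 3.28e-04). For Arc, Itpkc, Mxd1 and Bnip5 the positive CKD523 libraries were the highest of all groups.

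**Figure D4:**
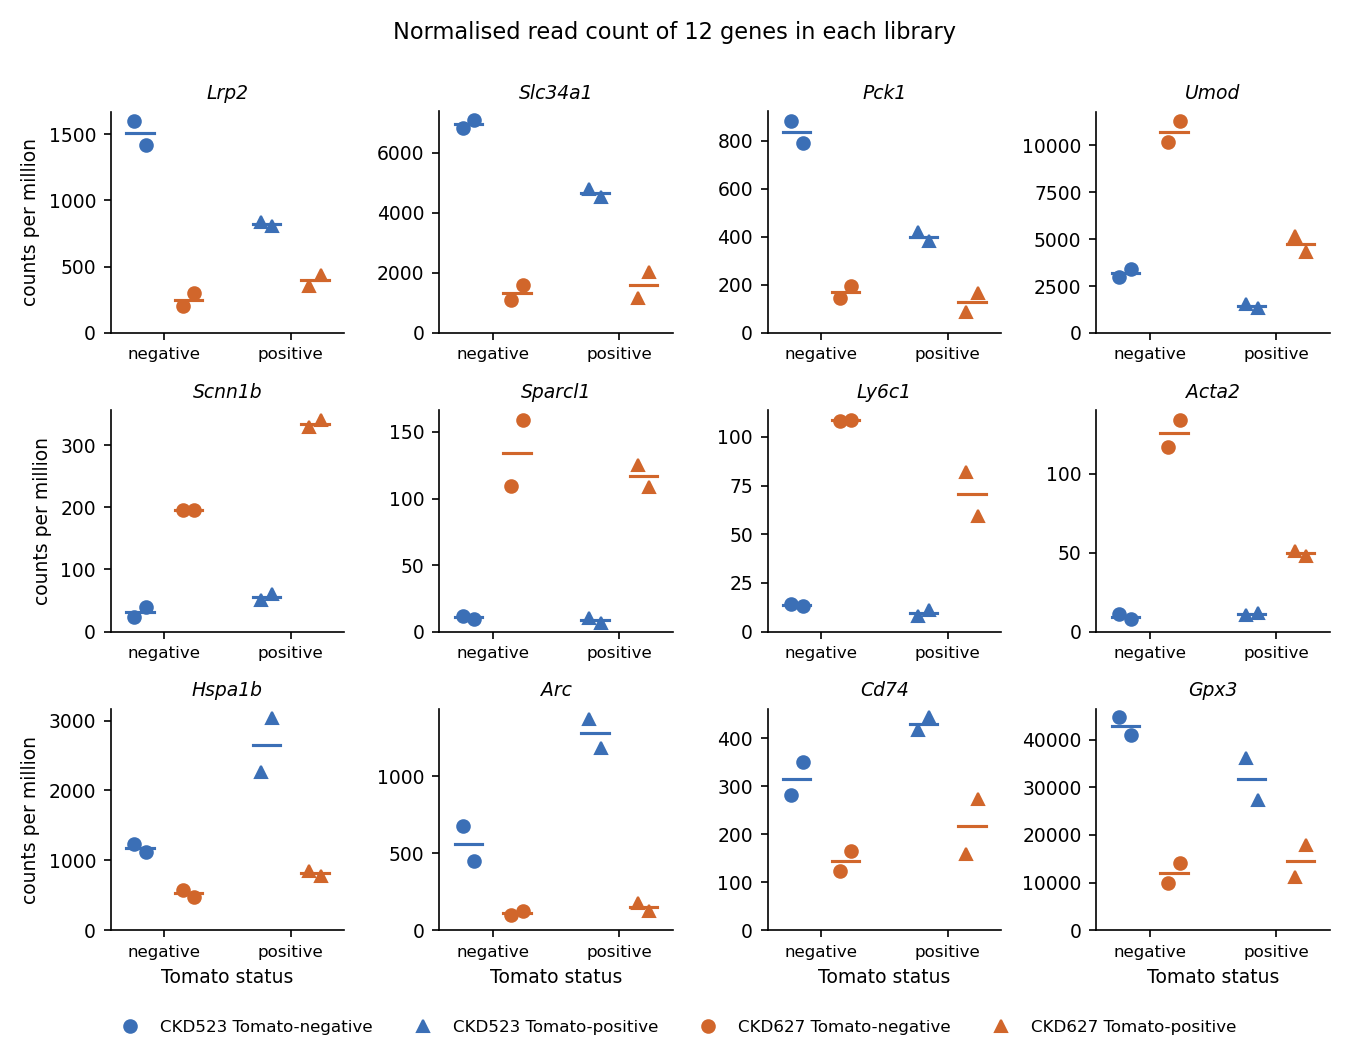
Points are the 8 libraries, in CPM on linear axes from 0, for 12 genes, with a bar at the mean of each group of 2. In every panel the CKD523 and CKD627 libraries of the same Tomato status do not overlap. The 12 genes were picked from those named in the text, some by a rule that required no overlap, so they do not stand for all genes.

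Of 54 genes of oxidative phosphorylation none passed in either direction by edgeR, where 19.9% of all tested genes did, and their median was -0.0034, with single genes between -0.35 and 0.38. None of 16 genes of the tricarboxylic acid cycle passed by edgeR (median -0.14). At an unadjusted p under 0.05 edgeR gave 2 and 3 genes of these lists. DESeq2 called 0 higher and 0 lower in the first list and 0 higher and 2 lower in the second, and limma-voom 0 higher and 0 lower and 0 higher and 2 lower. Of 34 genes of fatty acid oxidation and peroxisomes 17 were lower and none higher (median -0.41), against 10.8% and 9.06% of all tested genes. The lower count was 8 without identifier CKD523_2 and 11 without CKD523_3 or CKD627_2. Ppara, the nuclear receptor that turns this pathway on, lay at 109.97 and 85.5 CPM against 14.9 and 27.03 CPM in negative and 57.6 and 59.6 against 21.3 and 32.5 CPM in positive libraries (-1.67 ± 0.27 SE, adjusted p = 0.00121). Acot4, a peroxisomal thioesterase, differed by -1.76 ± 0.17 (SE, adjusted p = 1.16e-04), and catalase, Cat, by -1.23 ± 0.21 (SE, adjusted p = 0.00178). The early proximal tubule marker sum was lower in the same libraries, and its part in these differences was not tested.

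Of 20 genes of glucose synthesis and breakdown 6 were lower and 3 higher, against 10.8% and 9.06% of all tested genes. The lower genes included Pck1 and Fbp1 (-1.58 ± 0.21 SE, adjusted p = 4.78e-04), both enzymes of glucose synthesis in the proximal tubule, and 3 of the list's genes are also early proximal tubule markers here. Hk2, an inducible hexokinase of glycolysis, was lower as well, at 82.6 and 67.4 against 34.3 and 33.7 CPM in negative and 177 and 172 against 40.8 and 49.04 CPM in positive libraries (-1.55 ± 0.18 SE, adjusted p = 2.06e-04). Its highest libraries were the positive ones of CKD523, where those of Pck1 were the negative ones. Of 11 genes of phosphate and vitamin D handling 7 were lower and none higher, against 10.8% and 9.06% of all tested genes. Besides the 2 sodium-phosphate carriers the 7 held Slc20a1, a widespread phosphate carrier (-1.17 ± 0.13 SE, adjusted p = 1.65e-04). They also held Cyp24a1, which inactivates vitamin D (-1.101 ± 0.17 SE, adjusted p = 9.15e-04). In the cholesterol synthesis list 7 of 23 were lower, against 10.8% of all tested genes, and none higher. With library size only 6 of them were lower and 2 higher. Without identifier CKD523_2 or CKD523_3 4 of the phosphate genes were lower, and without CKD523_3 4 of the cholesterol genes.

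**Figure D5:**
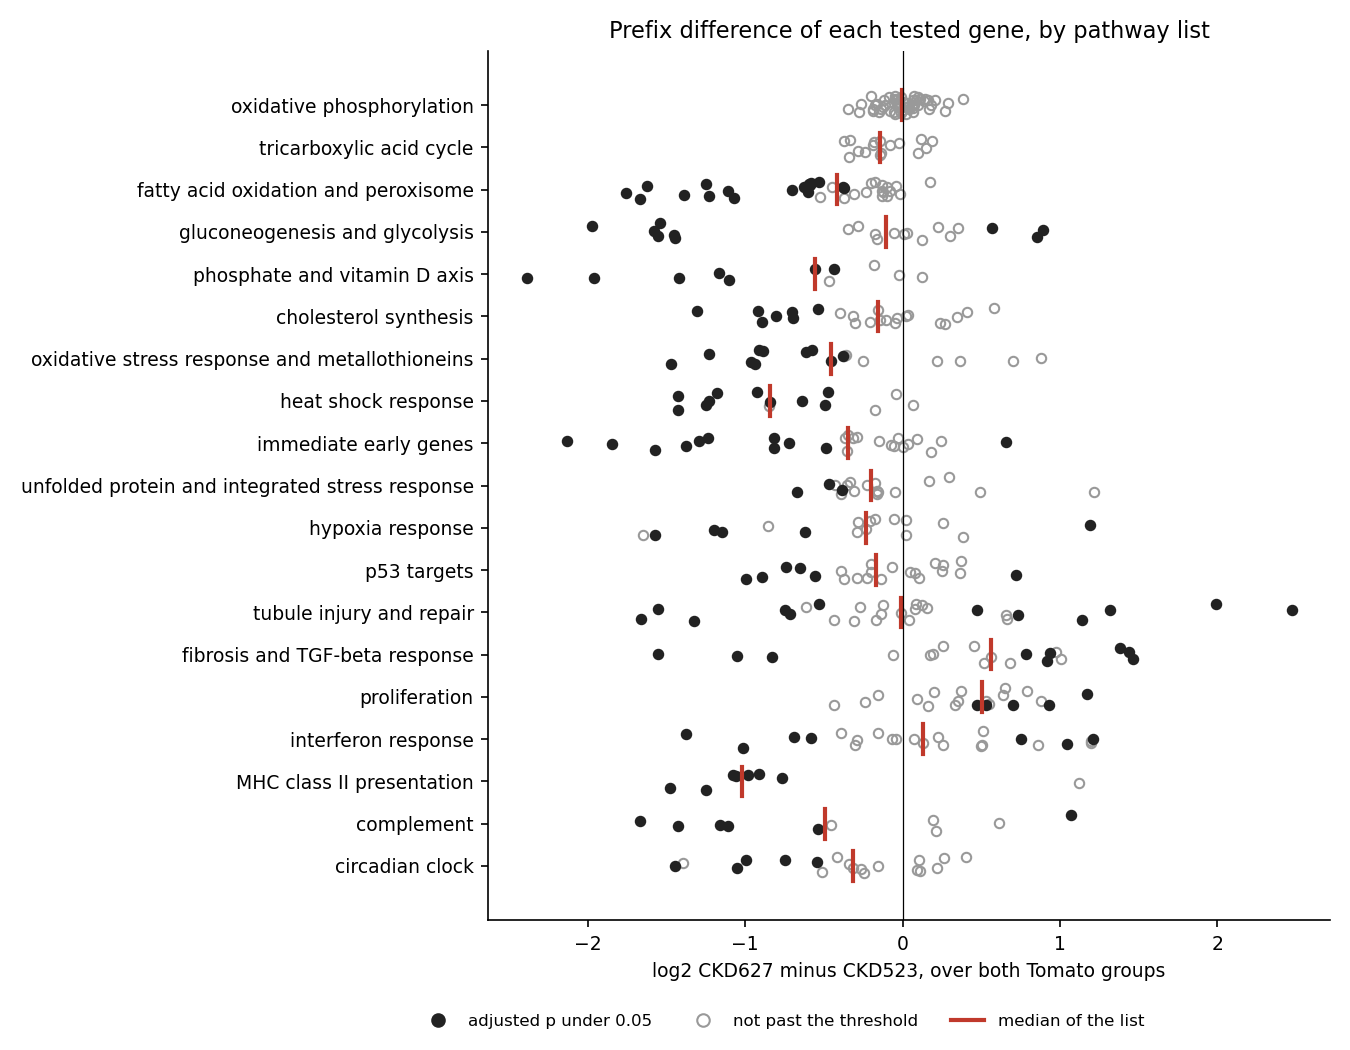
Each point is 1 tested gene of a pathway list, placed by its log2 difference of CKD627 minus CKD523 over both Tomato groups, filled where the adjusted p was under 0.05, and red bars are medians. Oxidative phosphorylation genes lie between -0.35 and 0.38, and the heat shock and MHC class II lists lie mostly left of 0, with medians of -0.85 and -1.02.

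Heat shock genes encode chaperones, which keep other proteins folded. Of 14 in the list 10 were lower and none higher by edgeR, against 10.8% and 9.06% of all tested genes. The median of the list was -0.85, and 9 of its genes did not overlap, against 10% of all tested genes. Hspa1b (chr17:34956436-34959238), an inducible Hsp70, lay at 1233 and 1126 CPM in negative CKD523 and 581 and 481 CPM in negative CKD627 libraries, and at 2260.3 and 3038 against 849.9 and 779.9 CPM in positive ones (-1.43 ± 0.16 SE, adjusted p = 1.85e-04). Its neighbour Hspa1a (chr17:34969190-34972156) differed by -1.23 ± 0.17 (SE, adjusted p = 5.79e-04). Dnajb1 (chr8:83608193-83612653), the Hsp40 partner, differed by -1.43 ± 0.14 (SE, adjusted p = 9.71e-05), and Hsph1, a nucleotide exchange factor of Hsp70, by -1.18 ± 0.16 (SE, adjusted p = 4.78e-04). The median was -0.65 in negative and -1.12 in positive libraries, where the early proximal tubule had -2.18 and -1.11, an order whose difference was not tested. Chaperones of the endoplasmic reticulum and integrated stress genes showed 3 of 18 lower, against 10.8% of all tested genes. That count was not stable when a library or identifier was left out. The median of the list then ran from -0.30 to -0.17.

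Immediate early genes are switched on within minutes of a stimulus, cell dissociation included. Of 25 tested 10 were lower and 1 higher, against 10.8% and 9.06% of all tested genes. Egr2, a zinc finger factor, lay at 57.6 and 37.4 CPM against 15.05 and 12.8 CPM in negative and 103 and 107 against 29.5 and 25.6 CPM in positive libraries (-1.85 ± 0.16 SE, adjusted p = 6.93e-05). The AP-1 members Fosl1 and Fosl2 differed by -2.13 ± 0.21 (SE, adjusted p = 1.08e-04) and -1.38 ± 0.13 (SE, adjusted p = 9.71e-05), and Fosb by -0.82 ± 0.11 (SE, adjusted p = 5.79e-04). Fos, the member usually induced first, did not pass, at 0.24 ± 0.11 (SE, adjusted p = 0.176), with 1759.6 and 1827 CPM against 2529.9 and 2248 CPM in negative libraries. The single higher gene was Ier2, named after its value was seen, at 0.66 ± 0.17 (SE, adjusted p = 0.0176), and it no longer passed without the negative library of CKD523_2 or of CKD523_3.

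Of 17 antioxidant genes 10 were lower and none higher by edgeR, against 10.8% and 9.06% of all tested genes. DESeq2 and counts summed per identifier gave 11 lower and 1 higher, and library size only 8 lower and 1 higher. The lower count was 6 without the negative library of CKD627_2 or both libraries of CKD523_2. Gpx3 (chr11:54902453-54910377), the secreted glutathione peroxidase made by the proximal tubule, lay at 44702 and 41031 CPM in negative CKD523 and 10026 and 14227 CPM in negative CKD627 libraries, and at 36151 and 27409.8 against 11145 and 17945 CPM in positive ones (-1.47 ± 0.200 SE, adjusted p = 4.86e-04). Gpx1, the cytosolic form, differed by -0.92 ± 0.14 (SE, adjusted p = 0.001102). In the hypoxia list 4 of 17 were lower and 1 higher, against 10.8% and 9.06% of all tested genes. Ndrg1 differed by -1.197 ± 0.18 (SE, adjusted p = 8.23e-04) and Pfkfb3, which drives glycolysis, by -1.57 ± 0.17 (SE, adjusted p = 1.61e-04), while Pdk1 was higher by 1.19 ± 0.18 (SE, adjusted p = 7.67e-04).

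Injury genes moved in both directions, 6 of 27 higher and 6 lower, against 9.06% and 10.8% of all tested genes. Without both libraries of CKD523_2 these counts were 3 and 3, and without those of CKD523_3 they were 3 and 6. Vim (chr2:13573927-13582826), the intermediate filament of mesenchymal and dedifferentiated cells, rose from 24.00 and 15.7 to 114 and 145 CPM in negative and from 26.2 and 45.4 to 184 and 156 CPM in positive libraries (2.47 ± 0.21 SE, adjusted p = 6.77e-05). Clu (chr14:65968483-65981547), the secreted chaperone clusterin, rose from 1120.00 and 1396 to 8505 and 6143 CPM and from 2318 and 2143 to 5654 and 6429.8 CPM (1.99 ± 0.22 SE, adjusted p = 1.86e-04). Krt7, a keratin of the collecting duct and of injured tubule, differed by 1.32 ± 0.21 (SE, adjusted p = 0.00114). Havcr1, which encodes the proximal tubule injury marker KIM-1, was lower, from 215 and 212 to 135 and 162 CPM in negative and from 242 and 218 to 99.2 and 146 CPM in positive libraries (-0.71 ± 0.15 SE, adjusted p = 0.00652). The fibrinogen gene Fga was lower, at -1.56 ± 0.26 (SE, adjusted p = 0.00163). Lcn2, which encodes the injury marker NGAL, did not pass at 0.66 ± 0.24 (SE, adjusted p = 0.0779). Over 22 alternatives Lcn2 ranged from 0.40 to 0.87, and it passed in 6. Vim, Clu and Krt7 thus rose while Havcr1 fell in the same libraries. Vim is also expressed by endothelium and mural cells, whose markers were higher in the same libraries, and their part in this difference was not tested.

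Of 19 tested genes of fibrosis and TGF-beta response 6 were higher and 3 lower, against 9.06% and 10.8% of all tested genes. Col5a2, a fibrillar collagen gene, was higher by 1.38 ± 0.197 (SE, adjusted p = 6.50e-04), Fn1, fibronectin, by 0.94 ± 0.18 (SE, adjusted p = 0.00301), and the receptor Tgfbr1 by 0.79 ± 0.13 (SE, adjusted p = 0.00123). Thbs1 (chr2:118111876-118127133), thrombospondin, fell from 1245 and 789 to 383 and 394 CPM in negative and from 1678 and 1480.4 to 496 and 460.1 CPM in positive libraries (-1.56 ± 0.16 SE, adjusted p = 1.22e-04).

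Molecules of MHC class II present antigen to helper T cells. By edgeR 7 of 8 genes of this list were lower, against 10.8% of all tested genes, and none higher. The median was -1.02, with single genes between -1.48 and 1.12. DESeq2, upper-quartile factors and library size only each gave 7 lower and 1 higher, and 3 were lower without identifier CKD523_2. Cd74, the invariant chain, lay at 282 and 350.4 CPM in negative CKD523 and 124 and 165 CPM in negative CKD627 libraries, and at 417 and 445 against 160.1 and 273 CPM in positive ones (-1.06 ± 0.18 SE, adjusted p = 0.00152). H2-Ab1 and H2-Eb1, chains of the class II molecules, differed by -1.25 ± 0.19 (SE, adjusted p = 7.88e-04) and -0.99 ± 0.16 (SE, adjusted p = 0.00118). Of 11 class I genes 1 was higher, against 9.06% of all tested genes, and none lower. The higher gene was Psmb8, an immunoproteasome subunit (0.95 ± 0.22 SE, adjusted p = 0.00909).

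Complement genes were lower in 5 of 10 tested and higher in 1, against 10.8% and 9.06% of all tested genes. The higher gene was Serping1, an inhibitor of the first component, named after its value was seen. Serping1 did not pass without 5 of the 8 libraries in turn. The lower genes included C4b (-1.67 ± 0.29 SE, adjusted p = 0.00211), C2 (-1.43 ± 0.23 SE, adjusted p = 0.00116), and Cfb (-1.11 ± 0.201 SE, adjusted p = 0.00252), with Cfi, which inactivates C3b and C4b, at -1.16 ± 0.16 (SE, adjusted p = 6.05e-04). Interferon-response genes were 3 higher and 4 lower of 23, against 9.06% higher and 10.8% lower of all tested genes. Oasl2 and Rtp4 were higher, by 1.05 ± 0.17 (SE, adjusted p = 0.00121) and 1.21 ± 0.22 (SE, adjusted p = 0.00243), and Gbp2 was lower, at -0.69 ± 0.15 (SE, adjusted p = 0.00758). The lower count was 0 without both libraries of CKD523_2 or of CKD523_3, 2 without those of CKD627_2, and 1 without the negative library of CKD523_2, the positive library of CKD523_2 or the negative library of CKD627_2. Among chemokines Cxcl5, which attracts neutrophils, was higher by 1.92 ± 0.41 (SE, adjusted p = 0.00669), and Cxcl1 was lower, at -1.07 ± 0.26 (SE, adjusted p = 0.0125). Cxcl5 did not pass without both libraries of CKD627_2, and Cxcl1 did not without both of CKD523_2, without both of CKD627_1 or without Tomato status as covariate.

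Of 20 proliferation genes 5 were higher, against 9.06% of all tested genes, and none lower. Among the higher genes was Mcm3, a helicase subunit of DNA replication (1.17 ± 0.16 SE, adjusted p = 5.93e-04). The count was 3 without either library of CKD523_2, 2 without the negative library of CKD523_3, of CKD627_1 or of CKD627_2 or the positive library of CKD627_1, and 1 without the positive library of CKD523_3. Cdkn1a, which encodes the cell cycle inhibitor p21, was lower, at 137 and 111 against 108 and 96.5 CPM in negative and 222 and 213 against 106 and 82.3 CPM in positive libraries (-0.74 ± 0.19 SE, adjusted p = 0.0179). It did not pass in 6 of 22 alternatives, library size only among them. Cdkn2a, the p16 gene, did not pass, at 1.83 ± 0.82 (SE, adjusted p = 0.153). Mdm2, a p53 target that restrains p53, was lower, at -0.65 ± 0.13 (SE, adjusted p = 0.00472), and 5 of 22 p53 targets were lower and 1 higher, against 10.8% and 9.06% of all tested genes. The lower count was 1 without both libraries of CKD523_2 and 2 without those of CKD627_2.

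Clock-controlled genes were compared because the labels give no time of collection. Of 19 tested 5 were lower, against 10.8% of all tested genes, and none higher. With library size only 3 were lower and 1 higher, and 3 were lower without the negative library of CKD523_2, both of CKD523_2 or both of CKD523_3. Hlf and Nfil3, output factors of the clock, differed by -1.44 ± 0.205 (SE, adjusted p = 6.22e-04) and -1.05 ± 0.16 (SE, adjusted p = 8.05e-04), and Per2 by -0.998 ± 0.19 (SE, adjusted p = 0.00355). The Y-linked gene Ddx3y was present in all 8 libraries and did not pass, at -0.33 ± 0.14 (SE, adjusted p = 0.136). Of 8 genes that are higher in male kidney 5 were lower in CKD627 and none higher, against 10.8% and 9.06% of all tested genes. The 5 included Cyp4a12a (-1.51 ± 0.18 SE, adjusted p = 2.28e-04) and Odc1, which makes putrescine (-1.15 ± 0.12 SE, adjusted p = 1.46e-04). Several genes of this list are proximal tubule genes.

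Other genes of the fixed set, followed whatever their result, did not pass the threshold. Spp1, osteopontin, lay at 14997 and 15119 against 22199.6 and 16310.4 CPM in negative and 16475 and 12559 against 11694 and 12367 CPM in positive libraries (0.04 ± 0.16 SE, adjusted p = 0.896). Vcam1, an adhesion protein of injured tubule and endothelium, differed by -0.13 ± 0.23 (SE, adjusted p = 0.746), and Col1a1, a fibrillar collagen gene, by 0.13 ± 0.48 (SE, adjusted p = 0.892). Dbp, a clock output factor, differed by 0.11 ± 0.35 (SE, adjusted p = 0.875), and Xdh, which makes urate and oxidises adenine, by 0.06 ± 0.18 (SE, adjusted p = 0.867). The sign of these 5 changed when single libraries were left out. Xist, the X-inactivation RNA, was too low in counts to be tested.

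Genes lower in CKD627 had higher counts on the whole. The median of the mean CPM was 60.5 for lower, 20.7 for higher and 25.7 for all tested genes. The longest annotated transcript had a median of 3281 bases in lower, 3363 in higher and 3290 in all tested genes, with GC contents of 50.2, 52.1 and 49.8%, over at least 98.3% of each set.

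The difference between prefixes was itself compared between the Tomato groups. By edgeR 3 genes passed (0.0198% of those tested), with 1969 at an unadjusted p under 0.05. Kcnj1 (chr9:32372493-32399197), the potassium channel ROMK of the thick ascending limb and collecting duct, lay at 114 and 109 CPM in negative CKD523 and 219.8 and 274 CPM in negative CKD627 libraries, and at 26.95 and 28.9 against 325 and 269.7 CPM in positive ones. Its log2 difference was 1.14 (adjusted p = 8.55e-04) in negative and 3.41 (adjusted p = 5.47e-06) in positive libraries. Wnt4 (chr4:137277489-137299726), a ligand re-expressed in injured tubules, was higher in CKD627 among negative libraries, at 13.5 and 11.97 against 35.3 and 27.2 CPM, and lower among positive ones, at 71.9 and 79.4 against 34.999 and 33.8 CPM. Tmem229a (chr6:24951141-24956297), a membrane protein gene of little known function, lay at 184 and 176 against 93.9 and 122 CPM in negative libraries (-0.74, adjusted p = 0.0101) and at 129 and 117 against 255 and 257 CPM in positive ones (1.06, adjusted p = 0.002703). DESeq2 called 272 genes and limma-voom 5. No gene passed by edgeR without the negative library of CKD523_2 or CKD523_3, or without the positive library of CKD523_2, CKD523_3, CKD627_1 or CKD627_2, and 1461 passed without the negative library of CKD627_2, which leaves the library of CKD627_1 alone in its group.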

How the data were processed

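RNA of cells from adenine-fed p16-tdTomato mice was sequenced, and the authors deposited raw counts per gene symbol for 8 libraries. The file headers name subread alignments but no genome build, and the submitters' processing notes name edgeR 3.32.1 and limma 3.46.0. Which tool counted the reads, with which annotation, multiple-match rule and strand mode, was not given in the sources used here, so overlapping genes may share reads.

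The 25240 genes were filtered with edgeR 4.0.16 (R 4.3.3; minimum count 10, minimum total 15), which left 15138. Libraries were scaled with TMM factors. Prefix with Tomato status as covariate, and 4 groups for the contrasts within Tomato status and their difference, were tested with the quasi-likelihood test at an adjusted p of 0.05. DESeq2 1.42.0 and limma-voom (limma 3.58.1), other scalings and filters, fits without the covariate, counts summed per identifier, and leaving out each library or identifier were alternatives. The fit was tested on simulated data. Depth was 13474439 to 19886202 counts, which covers counting error only. Replicates of a group differed by more than counting noise.

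Members and gene lists were chosen with earlier results of these data known. Named genes were a fixed set of 28, up to 15 largest rises and 15 largest falls past the threshold in both Tomato groups with the same sign, no overlap and at least 5 CPM on average, up to 4 per list by p, and the 3 smallest p-values each way where the Tomato groups were compared. Some genes that meet this rule are not reported here. Others are said to be chosen after their values were seen. Positions are from GENCODE M21 (mm10), and promoters from RefSeq (GRCm38.p6). Of the tested symbols 98.1% matched the annotation. Libraries with the same identifier were not treated as pairs, since the identifier is nested in the prefix and cannot be a block for that contrast. Their deviations from group means correlated at 0.056 and 0.0037. With 2 libraries a group this cannot show whether they share a source.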

Additional observations from a re-analysis of the deposited data

Results flagged for a closer look

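The difference between prefixes differed between the Tomato groups for 3 genes by a test of that difference (edgeR quasi-likelihood, Benjamini-Hochberg adjustment). Kcnj1 rose more in Tomato-positive libraries, by 2.27 on the log2 scale (adjusted p = 0.0166). Wnt4 had a difference of -2.43 (adjusted p = 0.0172), higher in CKD627 among negative and lower among positive libraries. Tmem229a had 1.800 (adjusted p = 0.0414), lower among negative and higher among positive libraries. All 3 kept their direction in every alternative run. None passed when any CKD523 library or a Tomato-positive CKD627 library was left out, and Tmem229a did not pass with library size as the only scaling. Each group held 2 libraries.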

How the results depend on the processing

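The 3009 genes that differed over both Tomato groups numbered 3005 to 3785 with other scalings, filters and tools and with counts summed per identifier, and 1831 without Tomato status as covariate. Leaving out a library or an identifier gave 1569 to 3129 over both groups, 1113 to 4105 for the Tomato-negative contrast, 376 to 2332 for the Tomato-positive contrast, 207 to 1281 for genes with the same sign in both, and 0 to 1562 for the difference of the contrasts. Where 1 library was left in a group, it was assumed to vary like the other groups. Without identifier CKD523_2, CKD523_3 or CKD627_2 the count over both groups was 1569, 1976 and 1946. With no filter on low counts 2444 genes passed in Tomato-positive libraries and 593 for the difference of the contrasts, where DESeq2 gave 272, limma-voom 5 and the identifier as a replicate block 25. The block is given as an alternative, since the labels do not say whether libraries with the same identifier are pairs. With upper-quartile factors 1663 were higher and 1405 lower.

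Genes near 0 changed sign. Without a library or identifier the log2 difference ranged from -0.33 to 0.0696 for Vcam1, -0.11 to 0.19 for Spp1, -0.67 to 0.88 for Col1a1, -0.69 to 0.62 for Dbp and -0.24 to 0.30 for Xdh. With library size only Vcam1 was 0.0156. With limma-voom Dbp was -0.0019, and with the identifier as random effect -0.0072. The cause was not tested. Depth limits the genes of few counts, and 2 libraries per group limit the contrasts.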
